A study of Mus musculus with 35 samples.

Results

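The genes described here are 10 regulators of alternative splicing in neurons and muscle, *Rbfox1*, *Rbfox2*, *Rbfox3*, *Nova1*, *Nova2*, *Elavl2*, *Elavl3*, *Elavl4*, *Ptbp1* and *Ptbp2*. They were chosen by symbol and are 10 of the 55356 genes that were counted. All 10 were among the 29911 genes that passed the filter on low counts. The counts come from 29 RNA-seq libraries of brain, cerebellum, heart, colon and gonad of adult C57BL/6J mice of both sexes, for which the labels name no treatment or mutation. Each tissue and sex formed a group, giving 10 groups with 3 libraries in each, except male heart with 2, and the gonad is the ovary in females and the testis in males. Ribosomal RNA was removed before strand-specific libraries were made, and matched full-length cDNA was read by Iso-seq on the PacBio platform, for which the somatic tissues of each sex were pooled. Iso-seq enters here only through the deposited transcript models, in which 9 of the 10 genes have an Iso-seq locus and *Rbfox3* has its ENSEMBL models alone. Libraries held 11742417 to 36194255 counts in all (median 24403774), and colon 11742417 to 18890658. Neither the labels nor the methods state which libraries come from one animal, so the P values measure the spread between these libraries.

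Alternative splicing joins different exons of a gene into different mRNAs, and proteins that bind the pre-mRNA near an exon decide whether it is kept or skipped. The polypyrimidine tract-binding proteins PTBP1 and PTBP2 mostly repress exons, and during the making of a neuron PTBP1 gives way to PTBP2. RBFOX proteins act in neurons and in striated muscle, whereas NOVA proteins and the neuronal ELAVL (Hu) proteins are known mainly from neurons, where they act on RNAs of the synapse.

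Levels are given as FPKM, the count of a gene scaled to the total count of its library and to the length of its exons, computed here. Markers of the labelled tissues were present in their libraries. *Tbr1*, a transcription factor of cortical neurons, was at 12.9 to 25.95 FPKM in brain, *Gabra6*, a receptor subunit of cerebellar granule cells, at 47.8 to 104 FPKM in cerebellum, and *Myh6*, the cardiac myosin, at 1789 to 4951 FPKM in heart. *Vil1*, of the brush border of epithelium, was at 149.8 to 336 FPKM in colon, *Foxl2*, of granulosa cells, at 35.2 to 53.9 FPKM in ovary, and *Prm1*, the protamine of spermatids, at 4298 to 5074 FPKM in testis. Each of these genes was higher in every library of its tissue than in all other libraries.

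Several libraries stood apart from the others of their tissue. In cerebellum, *Prph*, a neurofilament protein of peripheral and brainstem neurons, was at 4.43 FPKM in female replicate 2, 3.21 FPKM in female replicate 3 and 3.63 FPKM in male replicate 3, and at 0.726 FPKM or less in the other 3 libraries. The same 3 libraries were above the other 3 for 6 of the 8 neuron markers measured (*Snap25*, *Stmn2*, *Map2*, *Nefl*, *Nefm* and *Gad2*) and 2 of 3 astrocyte markers (*Gfap* and *Aqp4*), and below them for 2 of 3 granule cell markers (*Cbln1* and *Cbln3*), for *Pcp2* among 3 Purkinje cell markers and for *Gad1*. Their neuron markers summed to 1166, 1398 and 1217 FPKM against 990.2, 953.7 and 855 FPKM, with *Snap25* the most abundant gene and none of the 8 at 0, and their Purkinje cell markers to 1418, 1358 and 1491 FPKM against 2229, 2442 and 2246 FPKM. In heart, female replicate 3 was below the other 4 libraries for 5 of 5 cardiomyocyte markers, which summed to 4499 FPKM against 9264 to 10240 FPKM, and above them for both leukocyte markers (155 against 47.9 to 67.7 FPKM, *Cd74* the more abundant at 132 FPKM) and for 3 of 4 smooth muscle markers, while *Des* was lower. Female brain replicate 1 was below the other 5 brain libraries for *Neurod6* and *Tbr1*, which mark forebrain neurons, and above them for 3 of 3 astrocyte and 3 of 3 granule cell markers. In bulk tissue, fewer cells of a type and less RNA per cell cannot be told apart.

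The PTB family was compared first. *Ptbp1*, the repressor of exons in most cells outside the nervous system, had the highest level of any of the 10 genes in one tissue. Its level was 71.4, 84.5 and 91.3 FPKM in the 3 ovary libraries and 32.8, 30.0 and 33.3 FPKM in the 3 testis libraries. In colon it ranged from 26.2 to 48.2 FPKM (median 39.6), in cerebellum from 11.5 to 17.25 FPKM (median 16.3) and in brain from 8.48 to 13.4 FPKM (median 10.4). The 3 ovary libraries were thus above all others, colon and testis overlapped, and so did brain and cerebellum. In heart the libraries were at 9.04, 13.1 and 26.6 FPKM in females and at 12.3 and 11.0 FPKM in males. Female heart replicate 3 was the high one, and without it *Ptbp1* in heart lay within the range of brain and cerebellum together.

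*Ptbp2*, the paralog that takes over in neurons, had another order. Brain was at 33.0 to 44.1 FPKM (median 38.1), testis at 34.6, 38.1 and 30.8 FPKM and cerebellum at 28.7 to 39.8 FPKM (median 30.9). The libraries of these 3 tissues overlapped and lay above all others. Ovary (13.9, 9.47 and 14.8 FPKM) and colon (9.96 to 14.7 FPKM, median 12.4) overlapped too. Heart was lowest, at 6.01, 7.57 and 9.12 FPKM in females and 7.71 and 8.04 FPKM in males. The sum of both genes was nearly the same in brain (48.5 ± 4.001 FPKM, SD, n = 6), cerebellum (47.4 ± 3.04 FPKM, SD, n = 6) and colon (50.5 ± 8.61 FPKM, SD, n = 6), while the share of *Ptbp2* in that sum was 78.0%, 67.4% and 25.1%. *Ptbp2* thus led in every brain and cerebellum library and *Ptbp1* in every colon, heart and ovary library.

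The ratio of *Ptbp2* to *Ptbp1* within a library needs no scaling between libraries. Its lowest value in brain was 2.67 and its highest 4.72 (median 3.71), against 1.66 and 3.45 in cerebellum (median 1.98) and 0.207 and 0.475 in colon (median 0.331). In heart it was 0.665, 0.577 and 0.342 in females and 0.629 and 0.731 in males, and in ovary 0.195, 0.112 and 0.162. In testis the libraries were at 1.06, 1.27 and 0.925, so that both genes stood at a like level per length there and 2 of 3 libraries were above 1. The ratio was above 1 in all 12 brain and cerebellum libraries and below 1 in all 14 libraries of heart, colon and ovary, with brain and cerebellum overlapping.

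**Figure D1:**
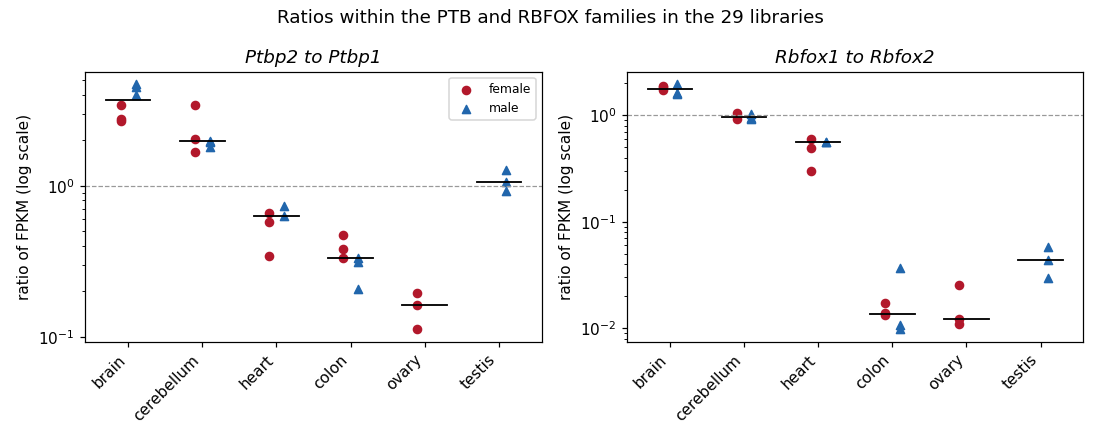
Ratio of FPKM of *Ptbp2* to *Ptbp1* (left) and of *Rbfox1* to *Rbfox2* (right) in each of the 29 libraries, by tissue, on log axes. Circles are female and triangles male libraries, short black lines are tissue medians and the dashed line is a ratio of 1. The medians of *Ptbp2* to *Ptbp1* run from 0.162 in ovary to 3.71 in brain.

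For tests of difference, all libraries entered a single model of edgeR, and its quasi-likelihood P values were adjusted by the method of Benjamini and Hochberg over the 29911 genes. A gene is called at an adjusted P under 0.05. In brain and cerebellum against heart and colon, 38.2% of all genes were called higher and 26.3% lower, and of the 10 splicing regulators 9 were called higher and 1 lower. The median log2 difference was 4.79 over the 10 genes and 0.11 over all genes tested. *Ptbp1* was the lower one, by a log2 difference of -1.02 ± 0.09 (SE, edgeR's quasi-likelihood test, Benjamini-Hochberg adjusted P = 2.13e-10), and *Ptbp2* was higher by 1.62 ± 0.09 (adjusted P = 4.68e-15). *Ptbp1* in both neural tissues overlapped with heart, and its mean was 15.4 FPKM in cerebellum against 14.4 FPKM in heart. Both calls held in each of the 37 other settings tried, whose gene counts ran from 18489 to 20504 against 19288.

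*Rbfox1*, the member of the RBFOX family best known from neurons, heart and skeletal muscle, was highest in brain, at 51.9 to 61.0 FPKM (median 56.5), followed by cerebellum, at 27.4 to 32.3 FPKM (median 30.1). The heart libraries were at 6.63, 6.71 and 4.54 FPKM in females and at 8.02 and 8.63 FPKM in males. Colon (0.109 to 0.333 FPKM, median 0.152), ovary (0.492, 0.233 and 0.231 FPKM) and testis (0.120, 0.199 and 0.178 FPKM) stood far below, on 46, 62 and 44 counts over their libraries. Brain, cerebellum and heart did not overlap with each other or with any other tissue. Colon overlapped with ovary and with testis, while every ovary library was above every testis library. The lowest heart library was female heart replicate 3, whose cardiomyocyte markers were also lowest, and the part of these cells in that value was not tested. In heart against colon, *Rbfox1* was higher by a log2 difference of 6.01 ± 0.26 (SE, edgeR's quasi-likelihood test, Benjamini-Hochberg adjusted P = 6.47e-16), which is 64.6-fold. This difference ran from 5.88 to 6.28 on leaving out a library and from 5.39 to 6.15 under the other alternatives.

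*Rbfox2*, its broadly expressed paralog, had a tau of 0.504, where tau runs from 0 for equal levels in all tissues to 1 for a single tissue. Among 16560 protein-coding genes with a tissue mean of at least 1 FPKM the median tau was 0.680. *Rbfox2* was at 28.8 to 35.9 FPKM in brain (median 31.7) and 27.7 to 33.4 FPKM in cerebellum (median 31.2), and these tissues overlapped. Ovary was next, at 19.5, 19.2 and 21.0 FPKM, above the heart libraries at 11.0, 13.6 and 15.3 FPKM in females and 14.2 and 15.4 FPKM in males. Colon, at 8.80 to 13.5 FPKM (median 10.3), overlapped with heart, and testis was lowest, at 4.07, 3.46 and 4.05 FPKM. The 3 testis libraries were below every other library.

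*Rbfox3*, which encodes the antigen NeuN that marks the nuclei of most neurons, was at 34.9 to 47.5 FPKM in brain (median 39.7) and at 18.6 to 25.7 FPKM in cerebellum (median 23.9). No other library exceeded 0.325 FPKM. The ovary libraries held 26, 47 and 38 counts, the testis libraries 16, 33 and 26 counts, and the colon libraries 3 to 14 counts. In heart 4 of the 5 libraries had no count, and male heart replicate 1 had 4 counts. Per total count, colon was 13.8-fold above heart (46 against 4 counts, 95% exact interval 5.04 to 52.8, which covers counting error only).

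Within the family, the shares of the summed level shifted between tissues. *Rbfox1* made up 43.8% of the sum in brain, 35.9% in cerebellum and 33.1% in heart, but 1.65% in colon, 1.57% in ovary and 4.01% in testis. *Rbfox3* made up 31.4% in brain, 27.1% in cerebellum and 0.0315% in heart. The remainder was *Rbfox2*, with 24.8% in brain, 66.9% in heart and 97.6% in colon. These shares depend on the length used, and with that of the longest transcript the highest mean of the family in brain was that of *Rbfox3* (75.06 FPKM, against 56.33 FPKM for *Rbfox1* and 34.89 FPKM for *Rbfox2*). The ratio of *Rbfox1* to *Rbfox2* was 1.596 to 1.96 in brain, 0.920 to 1.05 in cerebellum and 0.297 to 0.602 in heart, so that these 3 tissues did not overlap. In the other 12 libraries it was 0.0575 or lower.

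The neuronal ELAVL genes encode RNA-binding proteins that stabilize mRNAs and alter splicing in neurons. Their summed level was 95.4 ± 5.61 FPKM in brain and 94.8 ± 4.28 FPKM in cerebellum (SD, n = 6 each), and the libraries overlapped. The mean makeup of the sum differed, which was not tested. *Elavl2* made up 25.6% of it in brain (23.9% to 30.7% in single libraries) and 15.1% in cerebellum (7.96% to 24.1%). *Elavl3* made up 42.2% (36.1% to 46.1%) and 56.2% (41.6% to 66.8%), so that the shares of both genes overlapped between the tissues. The sum averaged 4.72 FPKM in testis, 1.90 FPKM in colon, 1.27 FPKM in ovary and 0.292 FPKM in heart.

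*Elavl2* was at 21.5 to 29.9 FPKM in brain (median 23.8). In cerebellum it was at 11.8, 19.3 and 22.4 FPKM in females and at 7.75, 6.95 and 18.1 FPKM in males. The 3 libraries with *Prph* above 1 FPKM were the high ones, 1 of which reached into the range of brain. Testis was at 1.68, 1.48 and 0.922 FPKM and ovary at 1.27, 0.982 and 0.780 FPKM, which overlapped, and heart and colon were lower, at 0.0368 to 0.461 FPKM. In ovary *Elavl2* made up 78.6% of the summed level of the 3 genes and in heart 77.0%, although the heart value rests on 115 counts.

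*Elavl3*, expressed in neurons from their birth on, was the member with the highest level in cerebellum, at 58.8, 50.2 and 38.7 FPKM in females and 61.8, 58.3 and 51.3 FPKM in males. In brain it ranged from 35.2 to 46.3 FPKM (median 40.4). These ranges overlapped through female cerebellum replicate 3, the lowest of its tissue. Testis was at 0.561, 0.796 and 0.504 FPKM, and ovary held 3, 3 and 11 counts. Colon held 16 counts in female replicate 1 and 14 in male replicate 3 (0.621 and 0.479 FPKM) and 2 to 6 counts in the other 4 libraries. Markers of spermatids summed to 21.8 FPKM in female colon replicate 1, 14.4 FPKM in female colon replicate 3 and 10.3 FPKM in male colon replicate 3. They summed to 1.59 FPKM or less in the other 3. Female colon replicate 3 held 3 counts of *Elavl3*. In testis *Prm1* alone was at 4298 to 5074 FPKM, with *Elavl3* at the levels given above. The part of spermatid RNA in the colon counts of *Elavl3* was not tested. Heart had 1 count over its 5 libraries, all in female replicate 2, and per total count colon was 55.3-fold higher (95% exact interval 9.43 to 2229, which covers the error of counting and not the spread between libraries).

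*Elavl4*, known as HuD, was at 27.4 to 35.8 FPKM in brain (median 30.0) and at 22.0 to 31.9 FPKM in cerebellum (median 27.9), and these overlapped. Outside them, testis was highest, at 2.71, 2.90 and 2.63 FPKM. Colon followed at 0.975, 1.64 and 1.38 FPKM in females and 1.65, 1.96 and 1.57 FPKM in males, ovary at 0.141, 0.230 and 0.113 FPKM, and heart at 0.106 FPKM or less, with no count in female replicate 1. Testis, colon and ovary did not overlap with each other. *Elavl4* made up 80.6% of the summed level of the 3 genes in colon and 58.5% in testis.

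The wall of the colon holds the neurons of the enteric nervous system. Their markers *Chrna3*, *Prph*, *Uchl1* and *Gal* were higher in every colon library than in every heart library, while *Ret* overlapped, at 1.57 FPKM or more in colon and 1.86 FPKM in male heart replicate 1. *Uchl1* was the most abundant, at 10.6, 9.70 and 9.53 FPKM in female and 15.1, 13.7 and 14.5 FPKM in male colon against 2.21 to 4.96 FPKM in heart, but was higher still in ovary and testis. *Chrna3*, a nicotinic receptor subunit, was at 1.196 to 2.07 FPKM in colon, at 0 in 4 of the 5 heart libraries and at 0.0451 FPKM or less in ovary and testis. In heart against colon, *Elavl4* was lower by a log2 difference of -4.14 ± 0.30 (SE, edgeR's quasi-likelihood test, Benjamini-Hochberg adjusted P = 9.74e-12). The part of enteric neurons in the level of *Elavl4* in colon was not tested.

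The NOVA genes encode KH domain proteins that bind clusters of short motifs near exons of synaptic genes. *Nova1* was at 15.0, 19.9 and 27.0 FPKM in female cerebellum and 14.2, 13.9 and 19.1 FPKM in male cerebellum. In brain it ranged from 14.0 to 19.95 FPKM (median 15.6), within the range of cerebellum. The 3 highest cerebellum libraries were again those with *Prph* above 1 FPKM. Colon was at 3.18, 2.03 and 2.44 FPKM in females and 4.24, 2.48 and 2.94 FPKM in males, above ovary at 1.52, 1.58 and 1.65 FPKM. In heart, female replicate 3 was at 1.76 FPKM and the other 4 libraries at 0.289 to 0.773 FPKM, and testis was at 0.399, 0.394 and 0.563 FPKM. Without that heart library, heart and ovary did not overlap.

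*Nova2* was at 12.6 to 20.4 FPKM in brain (median 14.0) and 5.86 to 9.47 FPKM in cerebellum (median 7.92), without overlap. Ovary (0.480, 0.862 and 0.647 FPKM), heart (0.380 to 0.839 FPKM) and testis (0.535, 0.783 and 0.349 FPKM) overlapped. Colon had the lowest median, at 0.177 to 0.365 FPKM (median 0.257), and overlapped with testis. The locus counted for *Nova2* consists of 2 transcript models of 1 exon each at the 3′ end of the gene (chr7:18958883-18964663, plus strand, GRCm38) and covers 0 of its 1668 coding bases, so that its counts report only on that end. *Nova1* to *Nova2* ratios were 0.729 to 1.40 in brain, 1.58 to 4.61 in cerebellum and 5.56 to 22.1 in colon, without overlap, and 0.667 to 3.70 in heart, 1.83 to 3.16 in ovary and 0.503 to 1.615 in testis, which overlapped with brain or cerebellum. They depend on the length used, as the brain mean of *Nova2* was 25.73 FPKM with the longest transcript and 15.06 FPKM without.

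**Figure D2:**
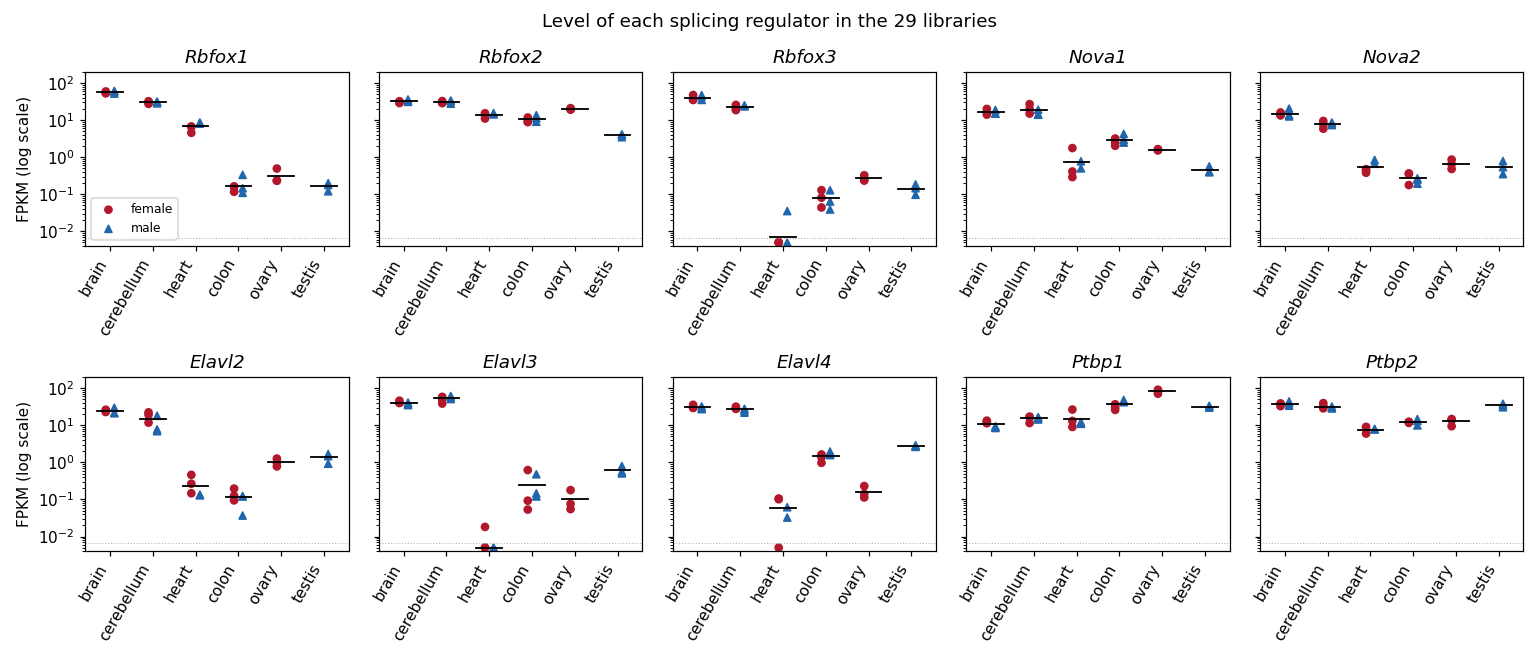
Level of each of the 10 genes in the 29 libraries, by tissue, in FPKM on a log axis shared by all panels. Circles are female and triangles male libraries, short black lines are means over both sexes, and libraries without a count are drawn at the bottom, below the dotted line. Of these, 7 of the 10 genes have their highest mean in brain, 2 in cerebellum and *Ptbp1* in ovary.

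Counting tissues with the highest mean, brain led for *Rbfox1*, *Rbfox2*, *Rbfox3*, *Nova2*, *Elavl2*, *Elavl4* and *Ptbp2*, cerebellum for *Nova1* and *Elavl3*, and ovary for *Ptbp1*. In males alone *Nova1* was highest in brain (16.19 against 15.73 FPKM in cerebellum). Among the 16560 protein-coding genes above, brain had the highest mean for 15.6%, cerebellum for 11.7% and ovary for 23.0%. For 8 of the 10 genes every brain and cerebellum library was above every other library, as for 2122 (12.8%) of the 16560, the exceptions being *Ptbp1* and *Ptbp2*, and *Ptbp2* overlapped with testis only. Tau was 0.886 for *Rbfox3*, 0.869 for *Nova2*, 0.867 for *Rbfox1*, 0.860 for *Elavl2*, 0.845 for *Elavl3*, 0.793 for *Elavl4*, 0.756 for *Nova1*, 0.732 for *Ptbp1* and 0.475 for *Ptbp2*.

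Against heart and colon, the neural tissues were higher by log2 differences of 5.00 ± 0.18 for *Rbfox1*, 6.76 ± 0.23 for *Elavl2* and 6.37 ± 0.16 for *Elavl4* (SE, edgeR's quasi-likelihood test, Benjamini-Hochberg adjusted P = 8.4e-19, 5.84e-19 and 2.64e-21). The differences were 4.58 ± 0.18 for *Nova2*, 3.42 ± 0.17 for *Nova1* and 1.15 ± 0.08 for *Rbfox2* (adjusted P = 7.3e-18, 8.26e-16 and 2.47e-12). *Rbfox3* and *Elavl3* were called higher as well, and no fitted difference is given for them because heart held 4 counts and 1 count.

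Brain and cerebellum hold different neurons, and they were compared directly. Among all genes 15.3% were called higher in brain and 10.8% lower, and among the 10 splicing regulators 5 were higher and 1 was lower. With total counts in place of normalization factors, the split over all genes was 3281 higher and 4058 lower against 4564 and 3232. The 5 were *Nova2* (log2 difference 1.07 ± 0.19, edgeR's quasi-likelihood test, Benjamini-Hochberg adjusted P = 0.000117), *Rbfox1* (1.05 ± 0.18, adjusted P = 5.6e-05), *Rbfox3* (0.98 ± 0.18, adjusted P = 0.000175), *Elavl2* (0.94 ± 0.21, adjusted P = 0.00127) and *Ptbp2* (0.38 ± 0.11, adjusted P = 0.0141). For *Nova2*, *Rbfox1* and *Rbfox3* all 6 brain libraries were above all 6 cerebellum libraries in FPKM. *Ptbp1* was lower in brain, by -0.42 ± 0.13 (edgeR's quasi-likelihood test, Benjamini-Hochberg adjusted P = 0.0141), and without female cerebellum replicate 1 the call was lost (-0.35, adjusted P = 0.0522). *Ptbp2* was no longer called with total counts (0.24, adjusted P = 0.18) or without the filter on low counts (0.33, adjusted P = 0.0617). *Elavl4* (0.31 ± 0.14, adjusted P = 0.118), *Rbfox2* (0.18 ± 0.11, adjusted P = 0.255), *Elavl3* (-0.27 ± 0.22, adjusted P = 0.431) and *Nova1* (0.01 ± 0.20, adjusted P = 1) were not called by edgeR's quasi-likelihood test after Benjamini-Hochberg adjustment, and DESeq2 called *Elavl4* (0.27, adjusted P = 0.00695). The sign for *Nova1* turned under every other scaling tried, and without female brain replicate 1 (-0.05), male brain replicate 1 (-0.03), female cerebellum replicate 1 (-0.08) or 2 (-0.00), male cerebellum replicate 1 (-0.03) or 2 (-0.04) or testis replicate 2 (-0.03).

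The 3 cerebellum libraries with *Prph* above 1 FPKM were left out, a choice made after seeing the data. Female replicate 1 was then the only female cerebellum library, so that calls from this fit also reflect the loss of libraries. *Ptbp2* was no longer called, although its log2 difference was 0.41 against 0.38 with all libraries. Without these 3 and a heart library, also chosen after seeing the data, *Ptbp2* was called again and *Elavl2* rose from 0.94 to 1.46. The part of the neurons and glia whose markers differed between these libraries was not tested.

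Heart is striated muscle, while the wall of the colon holds smooth muscle, epithelium and enteric neurons. Over all genes 25.0% were called higher in heart and 28.9% lower, and of the splicing regulators 4 were higher and 5 lower. With total counts the split over all genes was 4657 higher and 12256 lower against 7481 and 8650. Besides *Rbfox1*, heart was higher for *Rbfox2* (log2 difference 0.99 ± 0.12, edgeR's quasi-likelihood test, Benjamini-Hochberg adjusted P = 7.13e-08), *Nova2* (1.66 ± 0.25, adjusted P = 3.18e-06) and *Elavl2* (1.36 ± 0.40, adjusted P = 0.00494). In FPKM, heart and colon overlapped for *Rbfox2*, *Elavl2* and, through female heart replicate 3, *Ptbp1*. *Elavl2* held 115 counts in heart and 45 in colon. The *Elavl2* call was lost with total counts (0.82, adjusted P = 0.106). Heart was lower for *Nova1* (-1.51 ± 0.24, adjusted P = 6.41e-06) and *Ptbp1* (-0.93 ± 0.14, adjusted P = 1.89e-06) by the same edgeR test and Benjamini-Hochberg adjustment, and for *Elavl4*, *Elavl3* and *Rbfox3*. *Ptbp2* was not called (-0.11 ± 0.12, edgeR, Benjamini-Hochberg adjusted P = 0.506), but was lower with total counts (-0.68, adjusted P = 0.000148), under which the median over all genes moved by -0.52. Without female heart replicate 3 and the 3 cerebellum libraries, also chosen after seeing the data, 17085 genes were called in place of 16131, again with 4 splicing regulators higher and 5 lower.

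Ovary was set against heart and colon, where 25.5% of all genes were called higher and 16.4% lower, and the splicing regulators counted 3 higher and 2 lower. *Ptbp1* was higher by a log2 difference of 1.31 ± 0.13 (SE, edgeR's quasi-likelihood test, Benjamini-Hochberg adjusted P = 9.39e-09) and *Elavl2* by 2.19 ± 0.29 (adjusted P = 6.92e-07). *Rbfox3* was called higher too, on 111 counts in ovary. Lower were *Rbfox1* (-2.43 ± 0.31, edgeR, Benjamini-Hochberg adjusted P = 4.19e-07), against a mean that holds the heart, and *Elavl4* (-1.43 ± 0.37, adjusted P = 0.00305), which was below colon but above heart (means of 0.161 FPKM in ovary and 0.0603 FPKM in heart). For *Elavl4* the call was lost without male heart replicate 2 (-1.29, adjusted P = 0.0873) and with total counts (-0.89, adjusted P = 0.0672). The split over all genes was 7628 higher and 4916 lower, and it became 6551 and 6855 by DESeq2 and 12859 and 2656 with total counts, under which the median of all genes rose by 0.56. *Ptbp2* was at -0.20 ± 0.13 and not called by edgeR's quasi-likelihood test (Benjamini-Hochberg adjusted P = 0.243). It was called lower by DESeq2 (-0.34, adjusted P = 0.0187) and by edgeR with RLE factors (-0.34, adjusted P = 0.0418). With total counts edgeR called it higher (0.38, adjusted P = 0.0248), so that its sign changed with the scaling. *Rbfox2* (0.12), *Nova1* (-0.38) and *Nova2* (0.20) were not called, but with total counts edgeR called *Rbfox2* (0.71, Benjamini-Hochberg adjusted P = 1.21e-05) and *Nova2* (0.77, adjusted P = 0.00412) higher. *Nova2* turned to -0.06 without ovary replicate 2. *Elavl3*, on 17 counts in ovary and 1 in heart, was not called either (edgeR's quasi-likelihood test, Benjamini-Hochberg adjusted P = 0.246).

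Testis against heart and colon moved more genes, 42.3% called higher and 26.4% lower, and all 10 splicing regulators were called, 7 higher and 3 lower. *Ptbp2* was higher by a log2 difference of 1.88 ± 0.12, *Elavl4* by 3.25 ± 0.21 and *Elavl2* by 3.27 ± 0.27 (SE, edgeR's quasi-likelihood test, Benjamini-Hochberg adjusted P = 1.57e-13, 2.56e-13 and 4.6e-11). *Ptbp1* was higher by 0.58 ± 0.14 (edgeR, Benjamini-Hochberg adjusted P = 0.000515), and *Rbfox3* and *Elavl3* were called higher on 75 and 123 counts. *Rbfox1* (-2.66 ± 0.32), *Rbfox2* (3.04-fold) and *Nova1* (-1.55 ± 0.28) were lower (edgeR, Benjamini-Hochberg adjusted P = 5.86e-08, 1.63e-10 and 1.85e-05). *Rbfox1* overlapped with colon (means of 0.166 and 0.171 FPKM), *Nova1* with heart, and *Ptbp1* with colon, where its mean was higher (38.1 against 32.0 FPKM in testis). *Rbfox3* and *Elavl3* overlapped with colon, and *Nova2* with heart, where its mean was 0.558 FPKM against 0.556 FPKM in testis. *Nova2* was called at 0.56 ± 0.24 with an adjusted P of 0.041 (edgeR, Benjamini-Hochberg), which was lost in 7 of 29 fits that left out a library. These were male heart replicate 2 (0.53), female heart replicates 2 (0.56) and 3 (0.52), female colon replicate 1 (0.49), male colon replicate 1 (0.52) and testis replicates 1 (0.60) and 2 (0.19), with adjusted P values from 0.0508 to 0.575. It was also lost without the filter on low counts (0.37, edgeR, Benjamini-Hochberg adjusted P = 0.194) and without the 4 libraries doubted after seeing the data (0.49, adjusted P = 0.0722).

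Between the gonads, where sex and organ cannot be told apart, 37.8% of all genes were called higher in testis and 26.5% lower, and 4 splicing regulators were higher and 3 lower. *Elavl4* was 25.6-fold higher in testis (log2 difference 4.68 ± 0.30, edgeR's quasi-likelihood test, Benjamini-Hochberg adjusted P = 6.59e-13), *Ptbp2* 4.24-fold (2.08 ± 0.17, adjusted P = 5.54e-11), *Elavl3* 8.67-fold (3.12 ± 0.51, adjusted P = 1.11e-05) and *Elavl2* 2.12-fold (1.08 ± 0.32, adjusted P = 0.00481). For *Elavl3* ovary held 17 counts, 11 of them in replicate 3, without which the difference was 3.87. *Rbfox2* (-1.73 ± 0.16, adjusted P = 1.02e-09), *Nova1* (-1.17 ± 0.31, adjusted P = 0.00221) and *Ptbp1* (-0.73 ± 0.18, adjusted P = 0.000828) were lower by edgeR with Benjamini-Hochberg adjustment. For *Ptbp2*, *Elavl4*, *Elavl3*, *Rbfox2*, *Nova1* and *Ptbp1* the 3 libraries of one gonad were all above the 3 of the other in FPKM, and for *Elavl2* they overlapped. With total counts the split over all genes was 9083 higher and 11520 lower against 11313 and 7919, and the *Elavl2* call was lost (0.44). Neuron markers were not at 0 in testis, where the 8 summed to 19.8, 21.5 and 19.4 FPKM against 2.76, 2.05 and 2.09 FPKM in ovary, but *Map2* alone gave 16.3, 17.1 and 15.6 FPKM of it and *Snap25* stood at 0.392 FPKM or less. *Rbfox1* (-0.24), *Rbfox3* (-0.28) and *Nova2* (0.36) were not called, but with total counts edgeR called *Rbfox1* (-0.88, Benjamini-Hochberg adjusted P = 0.014) and *Rbfox3* (-0.91, adjusted P = 0.0167) lower. *Rbfox1* turned to 0.10 without ovary replicate 1. The comparisons of ovary and of testis with heart and colon share the heart and colon libraries.

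Males and females were compared over brain, cerebellum, heart and colon. The share of all genes called was 0.0301% higher in males and 0.0736% lower, which is 31 genes. Of the 10 splicing regulators 0 were called by edgeR's quasi-likelihood test and 0 by DESeq2. At an unadjusted P under 0.05 by edgeR were 2904 of the 29911 genes and 2 of the 10 splicing regulators. The 2 were *Elavl2* (log2 difference -0.56 ± 0.22, Benjamini-Hochberg adjusted P = 0.411 by edgeR's quasi-likelihood test) and *Rbfox3* (adjusted P = 0.382), for which the 4 counts of heart were all in male replicate 1. The gene count was 310 by DESeq2, and with total counts the split was 9 higher and 14 lower against 9 and 22. The count by edgeR moved to 18 without female brain replicate 1, to 19 without male brain replicate 2 or 3, to 20 without male cerebellum replicate 2 or male heart replicate 1, to 50 without female heart replicate 1 and to 52 without female heart replicate 2. Among the 40 pairs of a gene and a tissue, the libraries of both sexes did not overlap in 5, or 12.5%, against 14% of such pairs over the 16560 protein-coding genes. Of these 5, 2 were of *Ptbp1*, which was at 11.4 to 13.4 FPKM in female and 8.48 to 9.35 FPKM in male brain, and at 26.2 to 37.0 FPKM in female and 42.2 to 48.2 FPKM in male colon. The others were *Rbfox1*, *Nova2* and *Elavl2* in heart, which has 2 male libraries. A difference between the sexes in brain against cerebellum, or in heart against colon, was called for 0 of the 10 genes by edgeR and 0 by DESeq2. Over all genes it was called for 0 and 6 by edgeR and for 4 and 169 by DESeq2, in that order of comparisons. At an unadjusted P under 0.05 by edgeR were 0 of the 10 genes for brain against cerebellum and 3 for heart against colon (*Nova2*, *Rbfox3* and *Ptbp1*). Of the 29911 genes tested, 1189 and 2526 were under that cut.

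The other splicing factors of the same tissues were taken as a list of 27 genes, all of them tested. In neural tissues against heart and colon 16 were higher and 8 lower (against 38.2% and 26.3% of all genes), with a median log2 difference of 0.59 against 0.11 over all genes. The 4 higher with the smallest adjusted P were *Celf5* (6.05), *Celf4* (6.70), *Msi1* (5.76) and *Srrm3*, a regulator of neuronal microexons with means of 5.80 FPKM in brain and 0.0209 FPKM in heart. Lower were *Esrp2* (-3.01), an epithelial splicing factor, *Ptbp3* (-2.27), a further PTB paralog, *Rbm38* (-4.04) and *Rbm20* (-2.08), which splices titin in heart. In heart against colon 8 were higher, led by *Rbm20* (5.90), *Srrm4* (4.55), *Rbm24* (means of 37.4 and 3.19 FPKM) and *Qk* (2.79), and 10 lower (against 25.0% and 28.9% of all genes), led by *Esrp1* (means of 0.0148 FPKM in heart and 55.2 FPKM in colon), *A1cf* (0 and 29.8 FPKM), *Esrp2* (-4.04) and *Ptbp3* (-2.79). *Ptbp3*, like *Ptbp1*, was thus lower in both comparisons.

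In brain against cerebellum 13 of the 27 were higher, among them *Celf5* (3.55), *Khdrbs3* (2.18) and *Celf2* (1.24), and 5 lower (against 15.3% and 10.8% of all genes), among them *Msi2* (-0.40), *Mbnl3* (-1.48) and *Esrp2* (-0.69). In ovary against heart and colon 9 were higher and 8 lower (against 25.5% and 16.4% of all genes), with *Msi1* (3.73) and *Msi2* (0.77) first among the higher and *Rbm24* (-5.02) and *Srrm4* (-1.69) among the lower. In testis against heart and colon 11 were higher and 10 lower (against 42.3% and 26.4% of all genes), with *Msi1* (4.91), *Celf5* (4.04), *Celf3* (3.65) and *Hnrnpll* (1.42) in the first group and *Rbm24* (-7.52), *Mbnl2* (-1.77), *Ptbp3* (-1.63) and *Celf1* (-0.96) in the second. Between testis and ovary 9 were higher, with *Celf5* (5.29) first, and 8 lower, with *Mbnl2* (-1.41) first, against 37.8% and 26.5% of all genes. For sex, 0 of the 27 were called.

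Of 22 general splicing proteins listed, 17 were higher and 2 lower in neural tissues against heart and colon, with a median log2 difference of 0.30 (0.11 over all genes), and *Snrpd1* had the smallest adjusted P (log2 difference 1.09). In brain against cerebellum 2 were higher (*Hnrnpa1*, 0.42, and *Eftud2*, 0.50) and 0 lower, and in heart against colon 11 were higher and 4 lower. The counts for this list come from the main fit, and with total counts the median over all genes in heart against colon moved by -0.52. *Prpf8*, called higher in heart (0.54), had means of 46.95 FPKM in heart and 48.96 FPKM in colon, so that its direction changed with the scaling. It was not alone in this. Among the 22 genes, heart had the higher mean FPKM only for *Sf3a1*, *U2af1*, *Snrnp200* and *Snrpa*. Most of the 11 calls higher in heart thus went with a lower mean FPKM in heart than in colon. In ovary against heart and colon 19 were higher and 0 lower, led by *Hnrnpa1* (1.36), and in testis against heart and colon 12 were higher and 2 lower, *Hnrnpa1* (-0.91) among the latter. Testis against ovary gave 5 higher and 11 lower, and sex 0. Of all genes 38.2% were higher and 26.3% lower in neural tissues against heart and colon, and 15.3% and 10.8% in brain against cerebellum. The shares were 25.0% and 28.9% in heart against colon and 25.5% and 16.4% in ovary. They were 42.3% and 26.4% in testis against heart and colon and 37.8% and 26.5% in testis against ovary.

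The last list held 12 RNAs known to be spliced or bound by these proteins, such as *Dlg4* for PTB. In neural tissues against heart and colon 10 were higher, among them *Gabbr1* (log2 difference 5.87), *Cacna1b* (5.93) and *Dlg4* (6.02), and *Camk2d* was lower (-0.47). In brain against cerebellum 8 were higher, with *Agrn* (1.21), *Dlg4* (1.44), *Cacna1b* (1.18) and *Gap43* (1.51) first, and 0 lower. Heart against colon gave 3 higher and 7 lower, ovary 3 and 3, testis 3 and 5 against heart and colon and 5 and 4 against ovary, and sex 0. Of all genes 38.2% were higher and 26.3% lower in neural tissues against heart and colon, 15.3% and 10.8% in brain against cerebellum, 25.0% and 28.9% in heart against colon, 25.5% and 16.4% in ovary, 42.3% and 26.4% in testis and 37.8% and 26.5% in testis against ovary. Gene counts do not report which exons of these RNAs were used.

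For each of the 10 genes, the protein-coding genes with the most similar pattern, up to 3, were found by Pearson correlation of the 10 group means of log2 CPM, among 18260 candidates. *Stau2*, *Apbb1* and *Scn4b* were nearest to *Rbfox1* (r = 0.996, 0.993 and 0.990), and *Stau2* stood at 65.9 FPKM in brain, 17.0 FPKM in heart and 5.35 FPKM in colon. *Ano8*, *Zfp112* and *Pitpnb* were nearest to *Rbfox2* (r = 0.988, 0.987 and 0.985), and *Ankrd13d*, *Slitrk1* and *Asphd1* to *Rbfox3* (r = 0.997, 0.997 and 0.995). For *Nova1* they were *Glrb*, a glycine receptor subunit, *Ptprz1* and *Dmp1* (r = 0.995, 0.991 and 0.991), and for *Nova2* *Snap47*, *Grin2a* and *Rapgef4* (r = 0.992, 0.991 and 0.991). The values of r rest on 10 groups of 6 tissues and share their libraries, and they are descriptions without a test.

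*Dlk1* and the joint locus of *Sez6l2* and *Kctd13* were among the nearest to *Elavl2* (r = 0.993 and 0.991), *Fmn2*, *Fez1* and *Nrip3* to *Elavl3* (r = 0.996 each), and *Slc25a53*, *Pcsk1n* and *B4galnt4* to *Elavl4* (r = 0.995, 0.991 and 0.990). *Pcsk1n*, which encodes an inhibitor of prohormone processing, was at 225 FPKM in brain, 2.86 FPKM in colon and 0.0380 FPKM in heart. The genes nearest to *Ptbp1* were *Tgif1*, *Stt3a* and *Scpep1* (r = 0.990, 0.974 and 0.973), and *Tgif1* was at 23.1 FPKM in ovary and 0.757 FPKM in brain. *Ptbp2* had *Mllt11*, *Kcnj9* and *Ptgdr* nearest (r = 0.990, 0.990 and 0.989), and the potassium channel gene *Kcnj9* was at 10.7 FPKM in brain, 13.4 FPKM in testis and 0.0123 FPKM in heart. Among the 10 genes themselves, *Rbfox3* and *Elavl3* were closest (r = 0.98), and *Ptbp1* had a negative r with each of the other 9, from -0.57 with *Ptbp2* to -0.94 with *Rbfox1*.

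The transcript models show exons that these proteins are known to regulate. *Ptbp1* and *Ptbp2* each have a 34-base exon whose length is no multiple of 3, so that skipping it shifts the reading frame, and skipping is known to send the RNA to decay. It lies at chr10:79862014-79862047 on the plus strand for *Ptbp1* and at chr3:119724612-119724645 on the minus strand for *Ptbp2* (GRCm38), in the coding part of both. In the deposited models it was in 5 of 6 transcripts of *Ptbp1*, with 1 skipping it, and in 6 of 6 of *Ptbp2*. GENCODE has 4 transcripts with it and 2 without for *Ptbp1* and 3 of each for *Ptbp2*, and 2 of those without are annotated for decay in each gene. The exons are printed 5′ to 3′ on the strand of the gene, as read from the GENCODE transcripts, to show how alike they are, with capitals at the 8 of 34 positions where they differ.
Ptbp1: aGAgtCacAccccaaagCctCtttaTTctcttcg
Ptbp2: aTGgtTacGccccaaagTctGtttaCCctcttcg

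The neuronal ELAVL genes share a 39-base coding exon in the hinge between the second and the last RNA-binding domain, which can be kept or skipped. It lies at chr4:91254141-91254179 for *Elavl2*, chr9:22024674-22024712 for *Elavl3* and chr4:110209740-110209778 for *Elavl4*, all on the minus strand. Of 6 deposited models of *Elavl2*, 4 hold this exon, 1 skips it and 1 holds it at 40 bases, while both models of *Elavl3* and the 1 model of *Elavl4* hold it. The 3 exons have 32 of 39 bases in common, and *Elavl3* and *Elavl4* are the closest pair with 89.7% identity, against 87.2% for *Elavl2* and *Elavl3* and 84.6% for *Elavl2* and *Elavl4*. Capitals mark the 7 positions at which they differ.
Elavl2: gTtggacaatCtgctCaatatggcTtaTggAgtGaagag
Elavl3: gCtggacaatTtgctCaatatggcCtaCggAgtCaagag
Elavl4: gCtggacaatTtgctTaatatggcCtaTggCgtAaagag

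The RBFOX genes share a 93-base exon that codes for part of the RNA-binding domain, and skipping it gives a protein with impaired RNA binding. It lies at chr16:7292185-7292277 on the plus strand for *Rbfox1*, and on the minus strand at chr15:77105577-77105669 for *Rbfox2* and chr11:118502842-118502934 for *Rbfox3*. It was in 8 of 10 deposited models of *Rbfox2* with 0 skipping it and in the 1 model of *Rbfox1*, while the ENSEMBL models of *Rbfox3* have 7 with it and 1 skipping it among 10. The exons of *Rbfox1* and *Rbfox2* are 92.5% identical, and each is 74.2% identical to that of *Rbfox3*, the member with the narrowest distribution over tissues. Capitals mark the 26 positions at which any of the 3 differs. The somatic tissues were pooled for Iso-seq, so these models do not tell in which tissue an exon was used.
Rbfox1: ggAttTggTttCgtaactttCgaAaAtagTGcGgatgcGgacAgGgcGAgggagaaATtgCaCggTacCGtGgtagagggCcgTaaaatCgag
Rbfox2: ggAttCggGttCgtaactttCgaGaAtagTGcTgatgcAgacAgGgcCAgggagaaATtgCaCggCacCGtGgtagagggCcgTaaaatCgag
Rbfox3: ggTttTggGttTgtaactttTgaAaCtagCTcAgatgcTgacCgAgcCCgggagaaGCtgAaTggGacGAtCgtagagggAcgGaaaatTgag

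Some counts share their place with other genes. *Ptbp1* shares 437 exon bases (12.5% of its exons) with *Gm17134* and 91 with *E130317F20Rik* on the opposite strand, and *Ptbp2* shares 63 with *Gm42664* on its own strand. Whether reads were counted by strand is not given in the sources used here, so reads from these pairs may not be told apart where they overlap. *Gm17134* held 643 to 723 counts in ovary and 49 to 124 in brain, where *Ptbp1* held at least 4507 and 724, and its level was thus also highest in the tissue in which *Ptbp1* was highest. The locus counted for *Elavl3* also carries *Gm49318*.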

How the data were processed

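RNA-seq of 29 libraries was used. Per the submitters' notes and the study's methods, the authors checked reads with FastQC 0.11.8 and MultiQC 0.9, mapped them to mm10 with HISAT2 2.0.5 and made the deposited counts with featureCounts 1.6.3, as raw counts of uniquely mapped reads per gene of an annotation that merges Iso-seq loci with ENSEMBL genes. The strand setting is not given in the sources used here, and 0 other columns of per-sample values were deposited. The counts that the authors deposited were turned into FPKM here, with library totals and the union of exons of each gene.

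Genes passing filterByExpr by group were normalized by TMM and fitted with edgeR 4.0.16 in R 4.3.3 (1 mean per group of tissue and sex, quasi-likelihood tests, Benjamini-Hochberg adjustment). The fit was also tested on simulated data. Alternatives were DESeq2 1.42.0, RLE factors, total counts, no filter, 2 kinds of block and leaving out each library. Leaving out 3 cerebellum libraries, or these with female heart replicate 3, was chosen after seeing the data. Tables were made in Python 3.11.15 with pandas 2.3.3 and scipy 1.17.1. Tau was computed from tissue means over both sexes.

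Named are all 10 members, the 3 genes most alike to each, and in each list and comparison up to 4 genes per direction with the smallest adjusted P, of which the text gives a selection. The members and lists were chosen with earlier results of these data known. Among 28 pairs of libraries within a group 0 were identical. Some genes of these lists are not reported here.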

Additional observations from a re-analysis of the deposited data

Results flagged for a closer look

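In each of 40 sets of libraries of a gene and a tissue with 5 or 6 libraries, the highest and the lowest library were compared with the others, and 4 libraries were flagged. Chance flags about 1 in 20 such groups. *Ptbp1* was at 26.63 FPKM in female heart replicate 3 (2237 counts) against 9.04 to 13.12 FPKM in the other 4 heart libraries. All 5 cardiomyocyte markers were lowest in the same library, and the part of that difference in the *Ptbp1* value was not tested. *Rbfox1* was at 0.333 FPKM in male colon replicate 3, on 13 counts, against 0.109 to 0.162 FPKM in the other 5 colon libraries. In heart, *Rbfox3* was at 0.0351 FPKM in male replicate 1, on 4 counts, and *Elavl3* at 0.01819 FPKM in female replicate 2, on 1 count, with the other 4 libraries at 0 for each, so that any count above 0 would have been flagged.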

How the results depend on the processing

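For neural tissues against heart and colon, all 370 alternative values of the 10 genes kept their direction and call. The same held for 354 of 370 in brain against cerebellum, 368 in heart against colon, 359 in ovary and 359 in testis against heart and colon, 364 in testis against ovary and 356 for sex. Genes called ran from 18489 to 20504 for neural tissues, 5851 to 8930 for brain against cerebellum, 14579 to 17085 for heart against colon, 10884 to 15515 for ovary, 17771 to 23550 for testis and 16336 to 20776 for testis against ovary. The cause of each change below was not tested.

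The median over all genes moved with total counts by 0.19 (neural tissues), -0.52 (heart against colon), 0.56 (ovary), -0.53 (testis against ovary) and -0.35 (sex by heart against colon), with RLE by -0.11 (neural), -0.11 (heart against colon) and 0.17 (testis against ovary), with DESeq2 by -0.13 (neural) and 0.18 (testis against ovary), and without the filter by -0.11 (neural) and -0.15 (testis against ovary).

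Reversed signs were as follows. *Nova1*: brain against cerebellum (0.01) became -0.03 with DESeq2, -0.03 with RLE, -0.04 without the filter and -0.13 with total counts, and -0.08 to 0.11 on leaving out a library. *Rbfox2*: ovary against heart and colon (0.12) became -0.01 with DESeq2 and -0.01 with RLE. *Nova1*: ovary against heart and colon (-0.38) became 0.14, *Ptbp2*: ovary against heart and colon (-0.20) became 0.38 and *Nova2*: testis against ovary (0.36) became -0.26 with total counts. *Nova2*: ovary against heart and colon (0.20) ran from -0.06 to 0.42 on leaving out a library, and *Rbfox1*: testis against ovary (-0.24) from -0.41 to 0.10, with 0.11 under the block by library code. For male against female, leaving out a library gave -0.12 to 0.16 for *Nova1* (-0.03), -0.71 to 0.00 for *Elavl3* (-0.51), -0.22 to 0.03 for *Elavl4* (-0.09) and -0.08 to 0.01 for *Ptbp1* (-0.04). *Nova1* was 0.21 without the 4 libraries doubted after seeing the data, and *Elavl4* 0.02 under the code block.

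The replicate numbers of the labels do not pair the samples: of 56 same-number pairs, 0 correlated over 0.1, and 9 of 29 libraries correlated best with their own number. The code block used the first digit of the library code, whose meaning is not given: of 53 pairs 4 correlated over 0.1 (highest 0.2231), and 13 of 29 libraries correlated best with their own digit. *Nova2*: testis against heart and colon (0.56) was not the same in 11 of 37 alternatives, among them the replicate block (0.54, edgeR, Benjamini-Hochberg adjusted P = 0.0877) and the code block (0.54, adjusted P = 0.106). With the replicate block, sex was -0.12 for *Rbfox1*, 0.19 for *Nova1*, 0.12 for *Elavl4* and 0.07 for *Ptbp1*, and the genes called were 18814, 7073, 15509, 11101, 19563, 16336 and 9 in the order of the comparisons above.

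Genes called for male against female (31) were 310 with DESeq2, 15 with the code block and 18 to 52 on leaving out a library. For sex by brain against cerebellum (0) they were 4 with DESeq2 and 0 to 4 on leaving out a library. For sex by heart against colon (6) they were 169 with DESeq2, 3 with the code block, 16 without the filter, 0 by edgeR without the 4 libraries (1985 at an unadjusted P under 0.05) and 0 to 17 on leaving out a library.

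With the longest transcript as length, the highest tissue mean was 34.89 FPKM for *Rbfox2*, 75.06 FPKM for *Rbfox3* and 25.73 FPKM for *Nova2*. That of *Ptbp1* was 62.19 FPKM with TMM-scaled library sizes and 44.97 FPKM in males alone, in colon, as males have no ovary. That of *Nova1* was in brain in males alone. Means and tau of females alone leave out the testis, and those of males alone the ovary. They thus rest on fewer tissues than the main values and do not measure a difference between the sexes. Tau on females alone was 0.836 (*Rbfox1*), 0.399 (*Rbfox2*), 0.863 (*Rbfox3*), 0.844 (*Nova2*), 0.804 (*Elavl2*), 0.783 (*Elavl3*), 0.757 (*Elavl4*), 0.773 (*Ptbp1*) and 0.544 (*Ptbp2*), and on males alone 0.831 (*Rbfox1*), 0.539 (*Rbfox2*), 0.8545 (*Rbfox3*), 0.6905 (*Nova1*), 0.846 (*Nova2*), 0.8294 (*Elavl3*), 0.749 (*Elavl4*) and 0.621 (*Ptbp1*). On log2(FPKM + 1) it was 0.699 (*Rbfox1*), 0.242 (*Rbfox2*), 0.806 (*Rbfox3*), 0.587 (*Nova1*), 0.725 (*Nova2*), 0.715 (*Elavl2*), 0.773 (*Elavl3*), 0.665 (*Elavl4*), 0.315 (*Ptbp1*) and 0.211 (*Ptbp2*), and with TMM-scaled library sizes 0.527 (*Rbfox2*), 0.896 (*Rbfox3*), 0.830 (*Elavl3*), 0.807 (*Elavl4*), 0.628 (*Ptbp1*) and 0.507 (*Ptbp2*).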
